A study of Mus musculus with 3 samples.

Results

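Natural killer cells were a rare population of the mouse gallbladder in these data: 59 of 26017 cell barcodes that passed the quality limits, out of 27700 barcodes in all. They were selected on their own transcripts. A barcode needed at least 300 genes, at most 20% mitochondrial counts and at least 3 of 8 genes detected (Ncr1, Klrb1c, Klre1, Klra8, Gzma, Prf1, Nkg7 and Eomes). It also had to lack any count of the T cell receptor partner genes Cd3d, Cd3e and Cd3g, of the macrophage gene Csf1r and of the B cell gene Cd79a. The epithelial genes Epcam, Krt8, Krt18 and Krt19 together had to stay under 6000 CPM, the usual scaling of counts by the total. Of the 95 barcodes with at least 3 of the 8 genes, 31 were removed by a Cd3 count and 5 by the epithelial limit, and Csf1r and Cd79a removed 0.

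Cells came from gallbladders of male C57BL/6 mice and were read on a droplet platform with 3′ libraries, which count unique molecular identifiers (UMIs). The labels give a group that received nanoplastics by gavage for 3 weeks, a group that received nanoplastics for 6 weeks and a group that received vehicle for 6 weeks, each made from 10 pooled gallbladders and digested with trypsin. Barcodes carry a library number, 1, 2 or 3, with no key to the groups in the labels or files. Nanoplastics and vehicle were therefore not set against each other, and each library is given as it stands. The 11, 23 and 25 natural killer barcodes of libraries 1, 2 and 3 held 65749, 49188 and 41515 UMIs, with medians of 4746, 2126 and 1296 UMIs per barcode. With 1 pooled library per group there is no replicate and no test; intervals are exact 95% intervals (Poisson for levels, Clopper-Pearson for shares) and cover counting error only. In all, 54 barcode sequences occurred in more than 1 library, 0 of them among the natural killer barcodes. Although the labels say male, an Xist UMI was found in 119, 17 and 28 kept barcodes of libraries 1, 2 and 3; it was found in 0 of the 59 natural killer barcodes, of which 34 held a UMI of a Y-linked gene.

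Natural killer cells are innate lymphocytes that kill infected, transformed or stressed cells without a rearranged antigen receptor. They weigh activating receptors against inhibitory receptors for MHC class I, release perforin and granzymes from granules, and secrete interferon gamma and chemokines. Close relatives, the type 1 innate lymphoid cells, share T-bet and NK1.1, stay in tissues such as liver, carry CXCR6 and CD49a, and depend less on Eomes.

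RUNX factors, and RUNX3 above all, are known regulators of natural killer genes, and Runx3 itself was read at 313 CPM in the natural killer barcodes (27 of 59). The promoters of the natural killer receptor NKp46 (Ncr1), granzyme A (Gzma) and perforin (Prf1) are shown because these genes define the killing program by which the cells were chosen. Each is 300 bases, from 250 before to 50 after the start of the RefSeq gene in GRCm38.p6. Ncr1 lies at chr7:4337465-4337764 on the plus strand, Gzma at chr13:113100932-113101231 on the minus strand and Prf1 at chr10:61297586-61297885 on the plus strand. Capitals mark the RUNX motif TGTGGT, the T-box motif GGTGTG or the ETS motif GGAAGT on either strand.
Ncr1: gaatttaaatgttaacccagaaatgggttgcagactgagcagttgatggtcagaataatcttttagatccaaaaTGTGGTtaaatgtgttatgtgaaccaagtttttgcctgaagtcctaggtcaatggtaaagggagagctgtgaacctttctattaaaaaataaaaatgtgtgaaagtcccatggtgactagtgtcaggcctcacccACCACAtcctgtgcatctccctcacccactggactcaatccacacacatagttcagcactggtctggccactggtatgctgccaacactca
Gzma: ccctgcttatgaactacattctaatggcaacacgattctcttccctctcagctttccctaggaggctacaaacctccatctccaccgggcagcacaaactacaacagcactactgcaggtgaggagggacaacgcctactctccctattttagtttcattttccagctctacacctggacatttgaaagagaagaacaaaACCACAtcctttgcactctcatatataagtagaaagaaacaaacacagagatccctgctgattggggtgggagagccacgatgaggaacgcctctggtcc
Prf1: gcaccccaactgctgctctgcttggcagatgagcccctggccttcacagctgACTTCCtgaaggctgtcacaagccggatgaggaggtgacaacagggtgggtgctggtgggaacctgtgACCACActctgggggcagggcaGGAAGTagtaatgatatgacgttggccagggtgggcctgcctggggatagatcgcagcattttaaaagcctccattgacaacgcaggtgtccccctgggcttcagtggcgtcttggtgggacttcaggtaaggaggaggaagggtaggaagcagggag
The RUNX motif began at -176 and -41 from the start of Ncr1, at -50 in Gzma and at -130 in Prf1, and the ETS motif at -198 and -108 in Prf1. All 8 genes of the rule matched a RefSeq promoter. A RUNX motif was in 6 of these 8 promoters, against 16.9% of 27025 promoters of the same length. The T-box motif was in 1 of the 8, against 19.0% of all promoters, and the ETS motif in 2 of the 8, against 24.1%. No overlap between motifs occurred in the 3 promoters printed, and a match of letters is a description and not a binding site. Regulation of these genes by RUNX3 was not tested.

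The 8 genes that chose the barcodes were carried unevenly among them. Exactly 3 of the 8 genes were detected in 33 of the 59 barcodes, 4 or more in 26, and all 8 in 0. Nkg7, a granule membrane protein, was detected in 45 barcodes, Gzma in 35, Prf1 and the receptor Klre1 in 34 each, and Klrb1c, the NK1.1 receptor, in 31. Eomes, the T-box factor of conventional natural killer cells, was in 20, Ncr1 in 18 and Klra8, the activating receptor Ly49H, in 15. Summed over the 59 barcodes the levels were 2409.7 CPM for Gzma, 876 CPM for Nkg7, 422 CPM for Prf1, 396 CPM for Klre1, 288 CPM each for Klrb1c and Klra8, 192 CPM for Eomes and 141 CPM for Ncr1. These 8 values come from the genes of the rule and are a description. Levels in CPM of 3′ UMIs do not scale with transcript length.

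**Figure D1:**
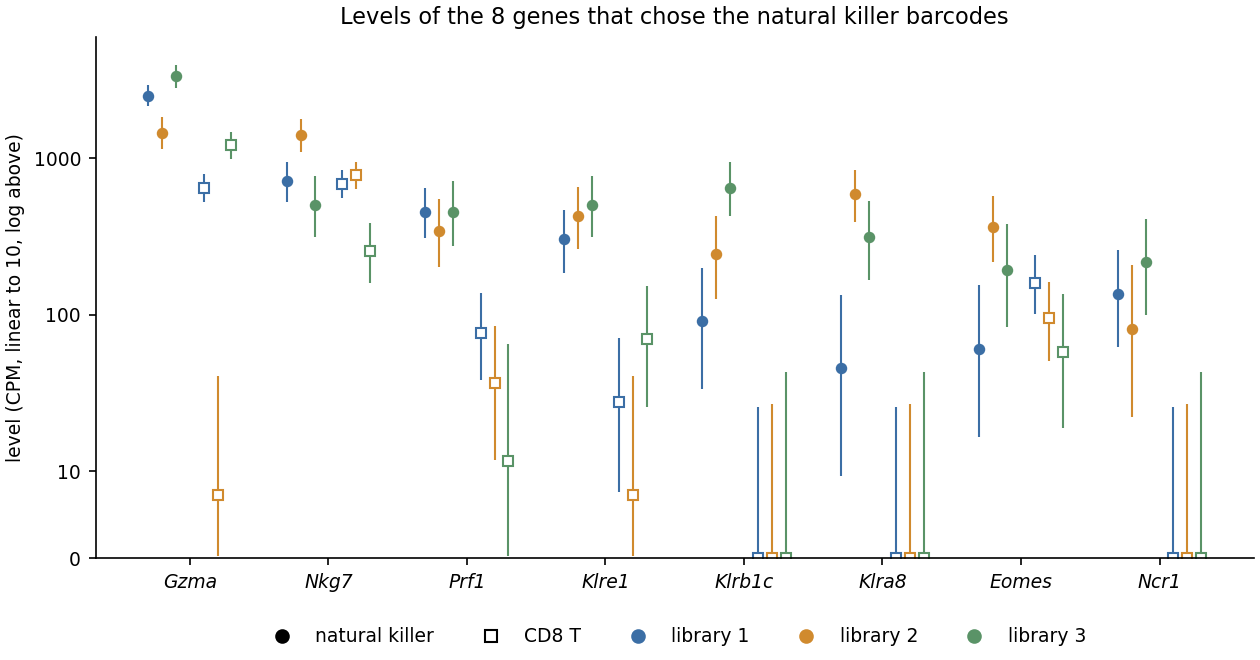
Level of each of the 8 rule genes (CPM; linear to 10, log above) in natural killer barcodes (filled circles) and CD8 T barcodes (open squares) of libraries 1, 2 and 3, with exact Poisson 95% intervals. Klrb1c, Klra8 and Ncr1 are at 0 in the CD8 T barcodes of every library, while Nkg7 and Eomes are read in both.

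The comparison class was CD8 T cells, the other cytotoxic lymphocytes: 96 barcodes (24, 51 and 21 in libraries 1, 2 and 3) with at least 2 Cd3 UMIs, a UMI of Cd8a or Cd8b1, and none of Cd4, Csf1r or Cd79a. In them Gzma was read at 540.4 CPM, Nkg7 at 622 CPM, Eomes at 112 CPM, Prf1 at 46.4 CPM and Klre1 at 30.0 CPM, and Ncr1, Klrb1c and Klra8 at 0 UMIs. Since these genes chose the natural killer barcodes, the differences between the classes in them describe the selection. In 9565 epithelial barcodes, which should lack these genes and had a median of 13654 UMIs against 1965 in natural killer barcodes, 0.0314% (Ncr1) to 1.43% (Eomes) held a UMI of a rule gene.

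Markers of most other lineages were low in the natural killer barcodes, with traces, but Trbc1 and Trbc2 of the T cell list were not. The mast cell, erythroid and group 3 innate lymphoid lists were at 0 UMIs, and so were Cd4, Cd5, Cd6, Ms4a1, Adgre1, Xcr1 and Clec9a. Of the 11 T cell markers 5 had a UMI: Trbc1 at 396 CPM, Trbc2 at 352 CPM, Trac at 51.1 CPM, Cd8b1 at 25.6 CPM and Cd8a at 6.39 CPM. The gamma-delta T cell list had 10 UMIs in 7 natural killer barcodes, 63.9 CPM, against 65.5 CPM in CD8 T barcodes. In all, 42 of 59 barcodes held a UMI of a T cell receptor constant gene and 7 held Trac, which was at 393 CPM in CD8 T barcodes. Unlike Trac, Trbc1 and Trbc2 were not 2-fold lower than in CD8 T barcodes in every library. Transcripts of unrearranged receptor loci are known in natural killer cells. How many of the members were T cells with no Cd3 count was not tested. The 17 barcodes with no receptor constant UMI lay in libraries 2 (7) and 3 (10), and 0 in library 1, whose barcodes are the deepest. The epithelial list summed to 441, 1037 and 964 CPM and the stromal list to 106, 122 and 1277 CPM in libraries 1, 2 and 3. The neutrophil list summed to 715, 325 and 72.3 CPM and the dendritic cell list to 0, 0 and 385 CPM, with 3 barcodes, 1 per library, holding at least 10 UMIs of these lists together. Scores from a doublet caller passed 0.25 in 1024 of 26017 kept barcodes (3.94%) and in 0 natural killer barcodes.

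Natural killer barcodes made up 0.227% of kept barcodes (0.173 to 0.292%). The share was 0.250% in library 1 (0.125 to 0.446%), 0.199% in library 2 (0.126 to 0.298%) and 0.249% in library 3 (0.161 to 0.367%), so the 3 intervals overlapped. The rule needs several transcripts in a barcode and 0 of Cd3, and kept barcodes had medians of 10704, 9666 and 2323 UMIs in libraries 1, 2 and 3. At a fixed 1000 UMIs per barcode, with 500, 618 and 1856 shallower barcodes left out, the share was 0.0768% (0.0158 to 0.224%), 0.137% (0.0767 to 0.226%) and 0.171% (0.0934 to 0.286%) in libraries 1, 2 and 3. Over all libraries it was then 0.139%, from 32 barcodes, 29 of them members and 3, all in library 2, that passed only at that depth. Library 1 had the highest share before thinning and the lowest after it, with intervals that overlap in both, and no order of the libraries is read from them. The plot of shares by library gives both versions.

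**Figure D2:**
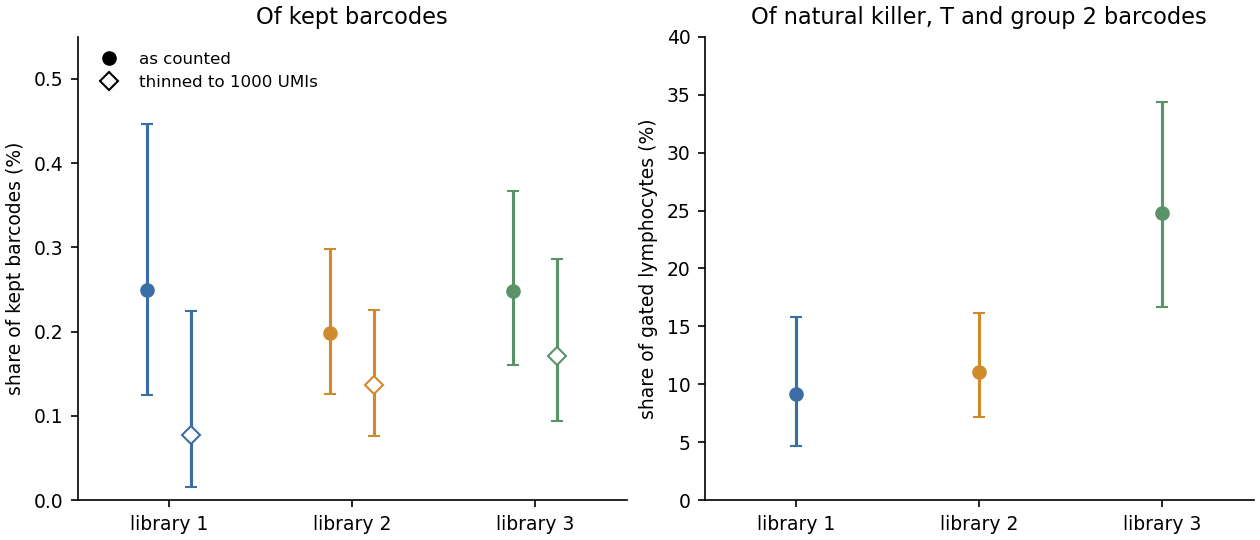
Left, natural killer barcodes as a percentage of kept barcodes in libraries 1, 2 and 3, as counted (filled) and thinned to 1000 UMIs (open); right, as a percentage of natural killer, CD8 T, CD4 T and group 2 innate lymphoid barcodes together. Bars are exact binomial 95% intervals; they overlap on the left, and on the right library 3 at 24.8% lies above library 2 at 11.1% and library 1 at 9.17%.

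Among the 429 gated lymphocytes (natural killer, CD8 T, CD4 T and group 2 innate lymphoid barcodes together), natural killer barcodes were 9.17% in library 1 (4.67 to 15.8%), 11.1% in library 2 (7.14 to 16.1%) and 24.8% in library 3 (16.7 to 34.3%). The library 3 interval lay above the other 2. Library 3 had 6 CD4 T barcodes (5.94% of its lymphocytes), against 52 (43.3%) in library 1 and 83 (39.9%) in library 2. CD8 T barcodes were 20.0, 24.5 and 20.8% in libraries 1, 2 and 3, and group 2 innate lymphoid barcodes were 27.5, 24.5 and 48.5%, so natural killer and group 2 shares were highest in the library where CD4 T barcodes were fewest. The T cell gates need 2 Cd3 UMIs, and library 3 was the shallowest by median UMIs; the part of depth in this share was not tested.

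Outside the rule, the cytotoxic granule list, which also holds 2 protease inhibitors, summed higher than in CD8 T cells. The 15 genes of the granule list that the rule did not use summed to 4551 CPM in natural killer barcodes (4223 to 4898 CPM) and to 2691 CPM in CD8 T barcodes (2526 to 2865 CPM). By library these sums were 4608, 4656 and 4336 CPM in natural killer barcodes, against 3614, 2290 and 1793 CPM in CD8 T barcodes. They include the inhibitors Serpinb9 and Serpinb6b, at 908 and 761 CPM in natural killer barcodes, against 186 and 139 CPM in CD8 T barcodes. By the levels given for each library, leaving out these inhibitors keeps natural killer barcodes higher in libraries 2 and 3. In library 1 the order then turns, with CD8 T barcodes higher. The 18 genes of the cytotoxic granule list summed to 8258 CPM in natural killer barcodes (7814 to 8721 CPM) and to 3900 CPM in CD8 T barcodes (3701 to 4108 CPM); 3 of them, Gzma, Prf1 and Nkg7, chose the barcodes, so this sum is in part set by the selection. By library the sums were 8304, 7868 and 8647 CPM in natural killer barcodes, against 5030, 3114 and 3272 CPM in CD8 T barcodes. Neutrophils, which share serglycin and some granule genes, summed to 6921 CPM on the same list. Across the whole matrix, 1602 genes had at least 50 UMIs in natural killer and CD8 T barcodes together. A gene read almost only in 1 class could pass this minimum through that class alone. Counts of calls in the lists are in part set by this. A fold is log2((natural killer CPM + 10)/(CD8 T CPM + 10)), and a gene was called when it passed 2-fold the same way in each library. Of the 1602 genes, 34 (2.12%) were called higher and 20 (1.25%) lower in natural killer barcodes, 31 of the 34 outside the rule. These shares are the background for every list count given below. Of the granule list, 4 of 9 genes tested were called higher and 0 lower; 2 of the 4, among 6 tested outside the rule, were Serpinb9 and Serpinb6b. The median log2 fold of these 6 genes was 0.88, against 1.23 with the rule genes and 0.04 over all genes tested.

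Serpinb9, an intracellular inhibitor that guards killer cells against their own granzyme B, was at 943, 1057 and 675 CPM in natural killer barcodes of libraries 1, 2 and 3, against 251, 175 and 93.1 CPM in CD8 T barcodes. Serpinb6b, another serine protease inhibitor, was at 882, 609.9 and 747 CPM, against 265, 36.5 and 93.1 CPM in CD8 T barcodes. For both genes every natural killer value lay above every CD8 T value. Gzma was at 2525, 1464 and 3348 CPM in natural killer barcodes, against 649, 7.29 and 1211 CPM in CD8 T barcodes, and in library 1 a single barcode gave 57.2% of its natural killer UMIs. Granzyme B (Gzmb) was at 487, 305 and 385 CPM, against 460.5, 139 and 349 CPM in CD8 T barcodes, and was not called. Serglycin (Srgn), the proteoglycan that packs granules, was at 1582, 2094 and 1253 CPM, against 1981, 1436 and 384 CPM in CD8 T barcodes, with the order turned in library 1. Gzmk, a granzyme of memory T cells, had 1 UMI in natural killer barcodes and 31 UMIs in CD8 T barcodes.

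Several activating receptors and adaptors were called higher than in CD8 T cells, and others were not. Of the activating receptors and adaptors 4 of 6 genes tested were called higher and 0 lower, 0 of the 6 being rule genes, with a median log2 fold of 3.47. Fcer1g, the adaptor chain of Fc receptors and NKp46, was at 1171, 1809 and 313 CPM in natural killer barcodes of libraries 1, 2 and 3, against 34.9, 0 and 0 CPM in CD8 T barcodes. Tyrobp, the DAP12 adaptor that signals for activating Ly49 receptors, was at 973, 1281 and 289 CPM, against 83.7, 14.6 and 0 CPM in CD8 T barcodes. Both adaptors are shared with myeloid cells, and macrophage barcodes had Fcer1g at 1655 CPM and Tyrobp at 1420.1 CPM. The whole activating list summed to 5024 CPM in natural killer, 3663 CPM in macrophage and 5185 CPM in neutrophil barcodes. The macrophage list, whose member Csf1r is barred by the rule, summed to 38.4 CPM in natural killer barcodes. The part of myeloid transcripts in the adaptor levels was not tested. Hcst, the DAP10 adaptor, was at 531 CPM in natural killer and 685 CPM in CD8 T barcodes, and Cd247, the CD3 zeta chain, at 6.39 CPM and 68.2 CPM in the same order. Klrk1, the NKG2D receptor for stress ligands, was at 593, 325 and 578 CPM, against 76.7, 87.5 and 163 CPM in CD8 T barcodes.

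Klra4, which encodes the activating receptor Ly49D, was at 411, 671 and 650 CPM in natural killer barcodes of libraries 1, 2 and 3 and had 0 UMIs in CD8 T barcodes. It was at least 67.9-fold higher in natural killer barcodes, taking 3 UMIs over the 3 libraries as the floor. Klra4 (chr6:130043731-130067271) and Klra8 (chr6:130115226-130129898) lie in the natural killer gene complex, both on the minus strand of GRCm38. Of 59 barcodes, 23 held Klra4 or Klra8 and 13 held both. Any of Klra3, Klra4, Klra7, Klra8 and Klra9 was found in 28 of the 59 barcodes, and the inhibitory members Klra3, Klra7 and Klra9 in 13. Klra3 had 8 UMIs, all in library 1, Klra7 had 14 and Klra9 had 9, and Klra1, Klra5, Klra6 and Klra10 had 0. Ly49 genes are known to be switched on independently in single cells, which cannot be told apart here from missed transcripts at low depth. Windows of 90 bases in the last 500 bases of the longest transcript were shared with another gene of the family for 0% of Klra4 and Klra8, 8.52% of Klra3, 10.2% of Klra7, 14.1% of Klra9 and 32.6% of Klrc1. Levels of the last 4 are therefore less certain, and the direction of any error was not tested.

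Of the inhibitory receptors and their partner chains, 3 of 4 genes tested were called higher and 0 lower, with 2 called of 3 tested outside the rule. Klrb1b and the rule gene Klre1 had 68 and 62 UMIs in natural killer barcodes, against 0 and 11 in CD8 T barcodes. These genes too were tested only through the natural killer class. Klrb1b, an inhibitory receptor for the ligand Clr-b, was at 456, 264 and 602 CPM in natural killer barcodes of libraries 1, 2 and 3, with 0 UMIs in CD8 T barcodes, and was at least 53.1-fold higher. Klrd1, the CD94 chain that pairs with NKG2 receptors, was at 335, 386 and 217 CPM, against 83.7, 109 and 93.1 CPM in CD8 T barcodes. Klrc1, the inhibitory NKG2A chain, was at 262 CPM in natural killer barcodes and 128 CPM in CD8 T barcodes, and 13 of 59 barcodes held both Klrc1 and Klrd1. The checkpoint genes Tigit, Pdcd1 and Havcr2 had 0 UMIs in natural killer barcodes and Lag3 had 1.

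**Figure D3:**
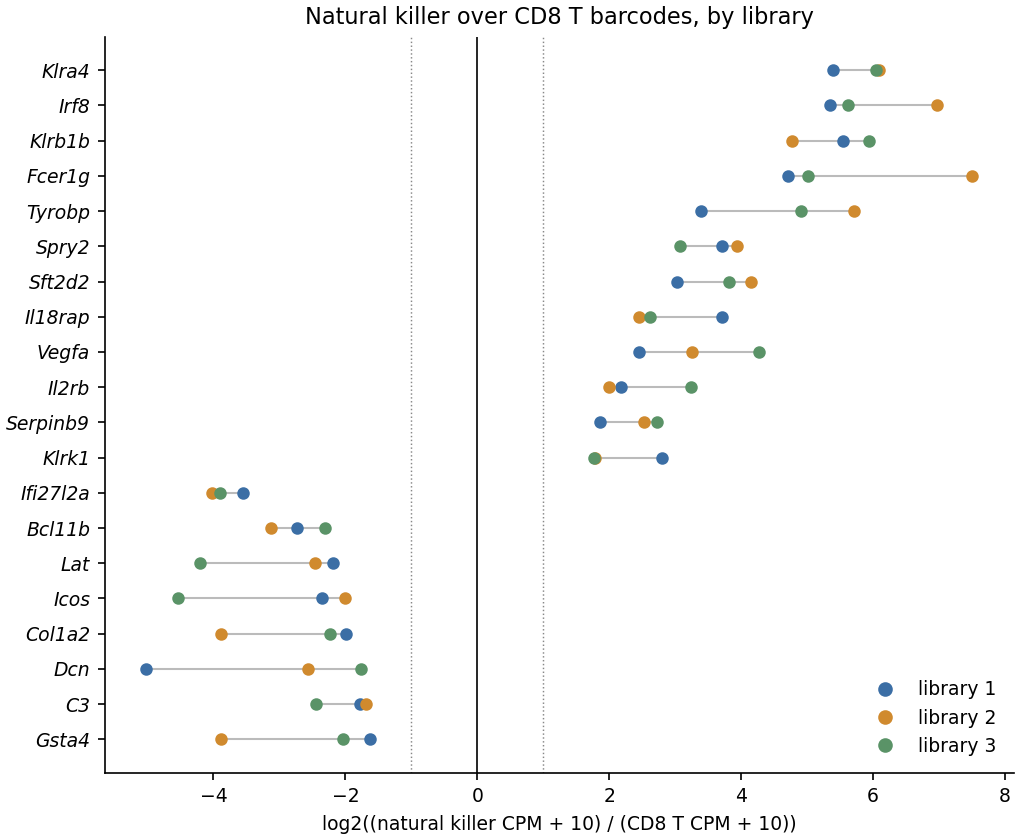
Log2 fold of natural killer over CD8 T barcodes (10 CPM added to both) in libraries 1, 2 and 3 for the 12 genes highest and the 8 lowest among those called. Rule, Cd3, Cd8 and T cell receptor genes, and genes under 100 CPM in both classes, were left out. Dotted lines mark 2-fold. The folds of Klra4 and Klrb1b, at 0 UMIs in CD8 T barcodes, depend on the offset.

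Receptors for the cytokines that feed and prime natural killer cells were called higher in 3 of 9 genes tested and lower in 0. Il2rb, the shared chain of the interleukin 2 and 15 receptors, was at 1840, 1606 and 1180 CPM in natural killer barcodes of libraries 1, 2 and 3, against 398, 394 and 116 CPM in CD8 T barcodes. Il18rap and Il18r1, the 2 chains of the interleukin 18 receptor, were at 326 CPM and 249 CPM over all natural killer barcodes, against 38.2 CPM and 65.5 CPM in CD8 T barcodes. Ifngr1, a chain of the interferon gamma receptor, was at 1336 CPM in natural killer and 1040 CPM in CD8 T barcodes and was not called.

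Chemokine transcripts were abundant, and their levels differed between the libraries. Ccl5, a chemoattractant stored by killer cells, was in 53 of 59 natural killer barcodes at 4654, 7603 and 1542 CPM in libraries 1, 2 and 3, against 8128, 7686 and 1141 CPM in CD8 T barcodes. It was lowest in library 3 in both classes. Ccl4, a chemokine made by activated lymphocytes and macrophages, was at 928, 1565 and 2336 CPM in natural killer barcodes, against 384, 131 and 442 CPM in CD8 T barcodes, and was the 1 gene of 7 tested in the cytokine and chemokine list called higher, with 0 called lower. Xcl1, which draws cross-presenting dendritic cells, was at 608, 1931 and 265 CPM in natural killer barcodes, against 893, 211 and 0 CPM in CD8 T barcodes. Its order between the classes thus turned in library 1. Interferon gamma (Ifng) was in 13 of 59 natural killer barcodes at 185 CPM, against 142 CPM in CD8 T barcodes, and Csf2, Tnf, Il10 and Lta had 2, 3, 0 and 0 UMIs in natural killer barcodes.

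Of the transcription factors 1 of 12 genes tested was called higher and 0 lower. That gene was Irf8, a factor of the interferon regulatory family that also drives dendritic and monocytic cells: 684, 1240.1 and 482 CPM in natural killer barcodes of libraries 1, 2 and 3, against 6.98, 0 and 0 CPM in CD8 T barcodes. Irf8 was in 34 of the 59 barcodes, against 1 of 96 CD8 T barcodes, while macrophage barcodes held it at 179 CPM. Tbx21, the gene of T-bet, was at 173 CPM in natural killer and 71.0 CPM in CD8 T barcodes; Id2, Ets1 and Bhlhe40 were read in both classes and not called. Of 10 homing receptors and integrins tested 1 was called higher, the monocyte and natural killer chemokine receptor Ccr2, at 365, 447 and 891 CPM in natural killer barcodes, against 167, 160 and 175 CPM in CD8 T barcodes. The 8 late maturation genes summed to 678 CPM in natural killer and 448 CPM in CD8 T barcodes, and 1 of them was tested and not called. Most of that sum was Gzmb (403 CPM) and Zeb2 (115 CPM), while S1pr5 and Cx3cr1 had 1 UMI each and Klrg1 had 3 in natural killer barcodes. Of the kinase and adaptor list, Txk was called higher and the T cell adaptor Lat lower among 8 tested.

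Outside the lists, the genes highest over CD8 T cells were Spry2, an inhibitor of growth factor signalling, Sft2d2, a vesicle transport protein, and Vegfa, the vascular growth factor. Spry2 was at 578, 589.6 and 1059.9 CPM in natural killer barcodes of libraries 1, 2 and 3, against 34.9, 29.2 and 116 CPM in CD8 T barcodes. Vegfa was at 274, 366 and 409.5 CPM, against 41.9, 29.2 and 11.6 CPM in CD8 T barcodes, and was detected in 20 of 59 natural killer barcodes and 7 of 96 CD8 T barcodes. For both genes every natural killer value lay above every CD8 T value.

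The 20 genes lower in natural killer than in CD8 T barcodes included genes of T cells. Of the T cell list, 6 of 8 tested were called lower, but 3 of these, Cd3d, Cd3e and Cd3g, are 0 by the rule. Cd8a and Cd8b1 were used to gate the CD8 T class, and the last was Trac. Trbc1 and Trbc2 were tested and called neither lower nor higher. Of genes that neither gate used, Bcl11b, the T lineage commitment factor, was at 30.4, 20.3 and 48.2 CPM in natural killer barcodes of libraries 1, 2 and 3, against 258, 255 and 279 CPM in CD8 T barcodes. Icos, a costimulatory receptor, was at 91.3, 102 and 0 CPM, against 509, 438 and 221 CPM in CD8 T barcodes. Ifi27l2a, an interferon-induced gene, was at 45.6, 0 and 0 CPM, against 642, 153 and 140 CPM in CD8 T barcodes, and was the 1 gene of 8 tested in the interferon list called lower. With the rule, Cd3, Cd8 and T cell receptor genes left out of the ranking, the 8 lowest also held the fibroblast genes Dcn and Col1a2, the complement gene C3 and Gsta4. Of 5 stromal genes tested 2 were called lower. Dcn was at 134 CPM in natural killer and 778 CPM in CD8 T barcodes, and the stromal list summed to 422 CPM and 1624 CPM in the same order. A single barcode gave 38.6% of the CD8 T UMIs of Dcn and 47.2% of those of Col1a2. Without the 5 CD8 T barcodes above 10000 UMIs, which held 22.4% of CD8 T UMIs and 49.9% of those of library 3, none of Dcn, Col1a2, C3 and Gsta4 was called, C3 and Gsta4 having fallen under 50 UMIs, while Bcl11b, Icos, Lat and Ifi27l2a still were. Of the 34 genes called higher 21 were shared. Among those named here, Klrk1 (log2 fold of 0.92 in library 3), Klrd1 (0.85 in library 3), Txk (0.99 in library 1) and Gzma (0.96 in library 3) were then no longer called.

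The natural killer barcodes were not uniform. By lists of markers, a barcode was put on the conventional natural killer side (Eomes, Itga2, Klra4, Klra8, Irf8 and others) or on the type 1 innate lymphoid side (Cxcr6, Itga1, Tmem176a, Tmem176b, Il7r and others) when at least 2 genes of 1 list and more than of the other were detected. On the conventional side were 31 of 59 barcodes, 52.5% (39.1 to 65.7%), and on the type 1 innate lymphoid side 18, 30.5% (19.2 to 43.9%); 10 were on neither. The type 1 innate lymphoid side held 6 of 11, 5 of 23 and 7 of 25 barcodes in libraries 1, 2 and 3. Eomes and Klra8 belong to both the rule and the conventional list. The type 1 innate lymphoid list is not particular to these barcodes. It summed to 1004 CPM in natural killer, 1144 CPM in CD8 T, 1950 CPM in CD4 T, 1311 CPM in group 2 innate lymphoid and 1153 CPM in epithelial barcodes. Of its 5 genes tested over CD8 T barcodes 0 were called. The side is thus a label by detected markers, and the identity of these barcodes was not tested. Itga1, which encodes the CD49a chain, was in 6 barcodes and Itga2, the CD49b chain, in 6, so neither marker by itself sorts the barcodes.

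Members were also divided by Gzma, which was detected in 35 barcodes and not in 24 (5 and 6 in library 1, 13 and 10 in library 2, 17 and 8 in library 3). This division was chosen after the values were seen, and it is described without a test. Median depth was 1893 UMIs with Gzma and 2108 UMIs without. Because 3 rule genes were needed, barcodes without Gzma had to hold 3 of the other 7, so rule genes are not compared between them.

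Irf8 and Ccl5 were higher with Gzma in each library. Irf8 was at 1330, 1852 and 550 CPM in barcodes with Gzma of libraries 1, 2 and 3, against 115, 528 and 284 CPM in those without. Ccl5 was at 7008, 10392 and 1778 CPM with Gzma, against 2577, 4356 and 851 CPM without. The intervals of these 2 genes overlapped only in library 3. In library 1 a single barcode gave 69 of the 216 Ccl5 UMIs with Gzma. That barcode held 2 UMIs each of Trac and Cd8b1 and 0 of Fcer1g and Tyrobp. Klra4 was at 876, 718 and 873 CPM with Gzma, against 0, 616 and 0 CPM without, so that library 2 showed little difference. Gzmb was at 1038, 529 and 323 CPM with Gzma, against 0, 44.0 and 567 CPM without, the last value coming from 6 UMIs in 1 barcode.

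Of the 10 genes of the type 1 innate lymphoid list, 5 (Cxcr6, Tmem176b, Ltb, Cd200r1 and Inpp4b) were higher without Gzma in each library. In this list 0 were higher with Gzma in each, and Zfp683 was at 0. A difference of any size counted, and Cd200r1 and Inpp4b had 4 UMIs each. The share over all genes and the same count for the conventional list were not taken, so the 5 are a description only. Cxcr6, a chemokine receptor that holds lymphocytes in liver sinusoids, was at 0, 37.8 and 32.3 CPM in barcodes with Gzma of libraries 1, 2 and 3, against 458, 704 and 189 CPM in those without. It was detected in 2 of 35 barcodes with Gzma and in 13 of 24 without. Rora, a nuclear receptor of innate lymphoid cells, was at 130, 491 and 64.7 CPM with Gzma, against 1117, 880 and 851 CPM without. Klrb1b was at 97.3, 75.6 and 485 CPM with Gzma, against 773, 484 and 945 CPM without. Tmem176b, an ion channel of immune cells, was at 0, 151 and 64.7 CPM with Gzma, against 200.4, 440.0 and 189 CPM without. Its partner Tmem176a was at 0, 0 and 162 CPM with Gzma, against 258, 88.0 and 94.5 CPM without, and so turned in library 3. Cxcr6, Rora, Klrb1b and Tmem176b were higher without Gzma in each library, although Cxcr6 and Tmem176b rest on 2 UMIs each in the barcodes without Gzma of library 3. Intervals with and without Gzma overlapped in library 3 for Cxcr6 and in library 2 for Rora. For Klrb1b they overlapped in libraries 2 and 3, and for Tmem176b in every library. A single barcode gave 19 of the 39 Rora UMIs without Gzma in library 1. The T cell receptor gene Trbc1 also differed along this division, in the same direction in each library, at 97.3, 265 and 388 CPM with Gzma, against 573, 616 and 567 CPM without, in 14 of 35 and 17 of 24 barcodes. Trbc2 was at 329 CPM with Gzma and 381 CPM without, and Trac at 56.7 CPM with and 44.0 CPM without. The 4 Cd8b1 UMIs of the members all lay in barcodes with Gzma that also held Trac. The part of T cells on either side of the division was not tested. Il7r was at 45.3 CPM with Gzma and 322 CPM without over all libraries, but had 0 UMIs without Gzma in library 3. Gata3, a factor of group 2 innate lymphoid cells, was at 11.3 CPM with Gzma and 366 CPM without, 24 of the 25 UMIs being in 4 barcodes of library 1. The group 2 innate lymphoid list summed to 395, 102 and 145 CPM in natural killer barcodes of libraries 1, 2 and 3, against 133, 139 and 116 CPM in CD8 T barcodes. Beside Gata3, its members Areg, Il1rl1 and Calca had 3 UMIs each and Hs3st1 had 2, and Il5, Il13 and Il17rb had 0. Thinned to 1000 UMIs, the log2 difference (50 CPM added) between barcodes with and without Gzma was -2.66 for Cxcr6, -1.47 for Rora and 1.57 for Irf8, against -2.92, -1.98 and 1.94 unthinned.

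**Figure D4:**
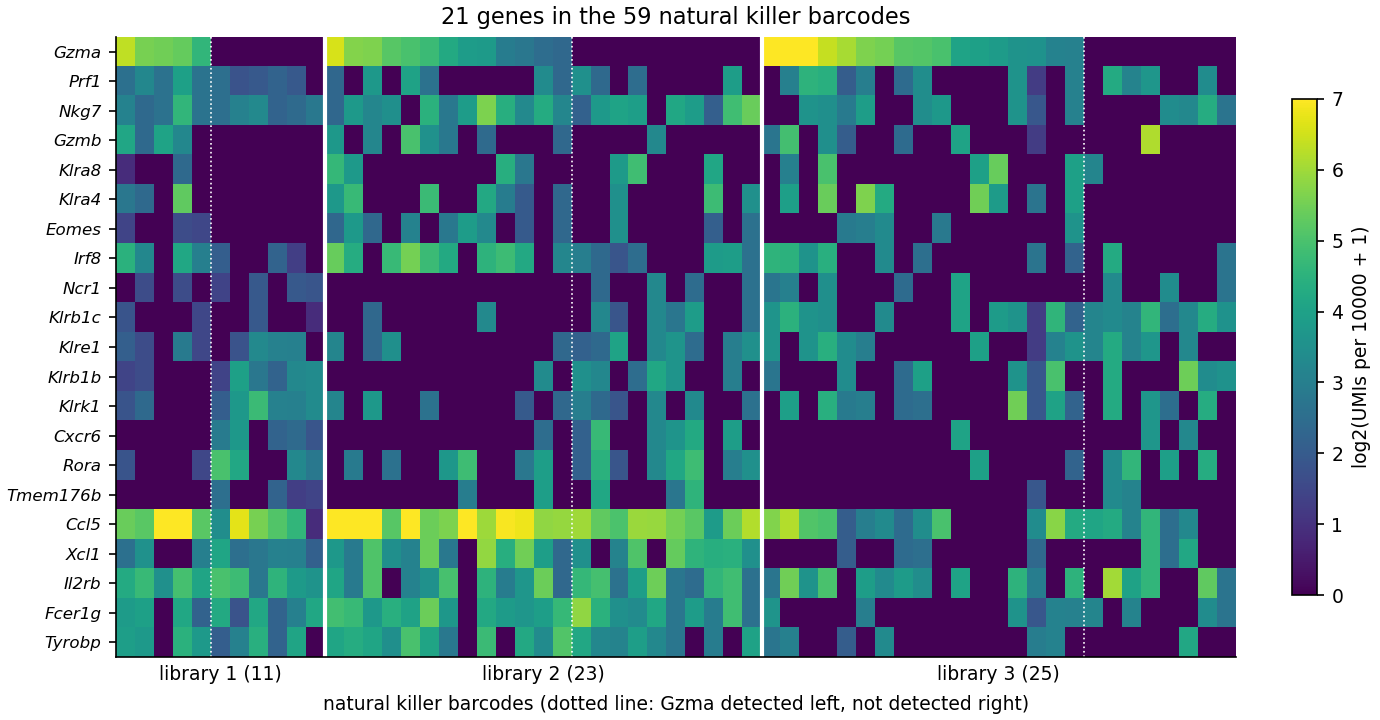
Log2(UMIs per 10000 + 1) of 21 genes in each of the 59 natural killer barcodes, ordered within libraries by Gzma; the colour scale ends at 7. Cxcr6 is seen almost only to the right of the dotted lines, where Gzma is not detected (13 of 24 barcodes, against 2 of 35), and Ccl5 fills most columns (53 of 59).

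**Figure D5:**
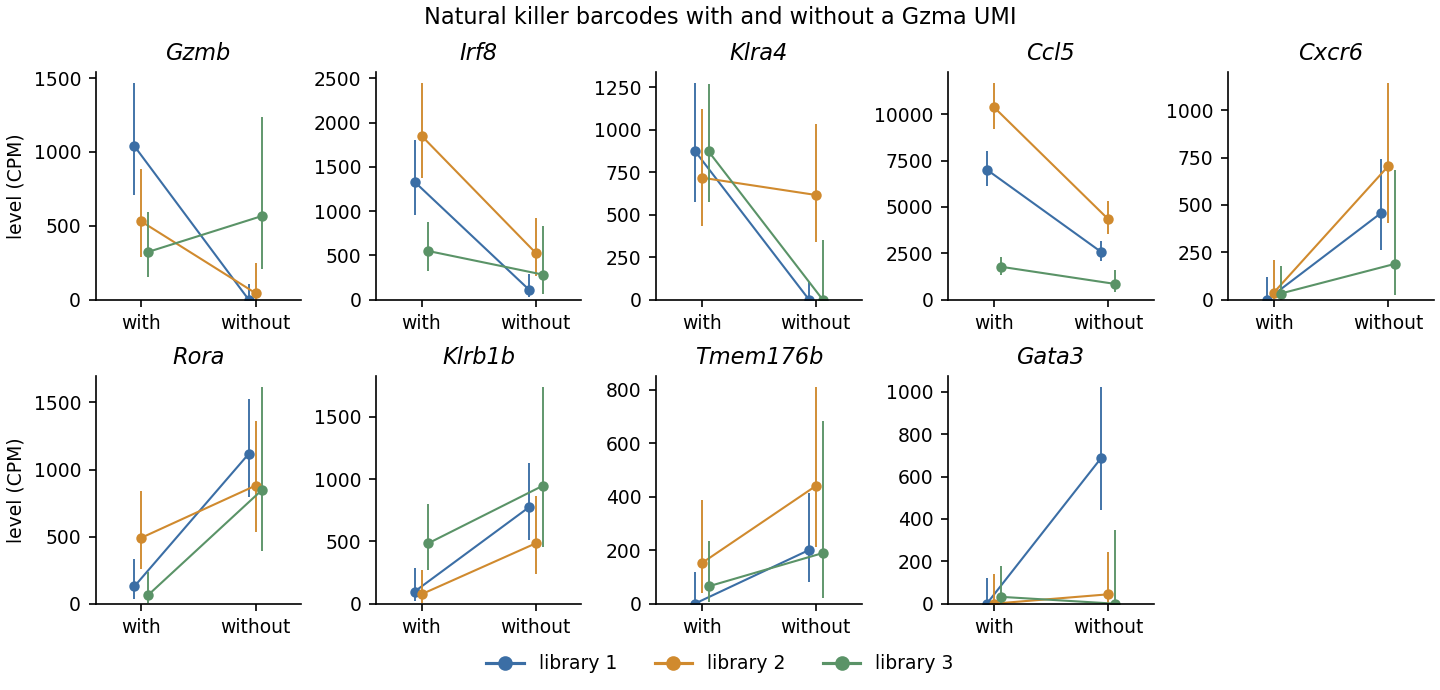
Level (CPM) of 9 genes in natural killer barcodes with and without a Gzma UMI, in libraries 1, 2 and 3, with exact Poisson 95% intervals. Irf8 and Ccl5 slope down and Cxcr6, Rora, Klrb1b and Tmem176b slope up in each library, while Gzmb and Gata3 do not keep 1 direction.

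The edge of the rule can be described by genes it did not use. Barcodes just inside it, with exactly 3 rule genes (33, median 1669 UMIs), held Ccl5 in 84.8%, Il2rb in 72.7% and Klra4 in 18.2%. Those with 4 or more (26, median 2419 UMIs) held them in 96.2%, 96.2% and 57.7%. The 40 barcodes just outside, with exactly 2 rule genes and past the other limits (median 1758 UMIs), held Ccl5 in 75.0% and Il2rb in 70.0%, and Klra4 in 1 barcode. These values describe the threshold and were not tested.

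Activity states were read over the remaining lists. All 20 immediate early and heat shock genes were tested and 0 were called in either direction: the list summed to 19255, 17037 and 25172 CPM in natural killer barcodes of libraries 1, 2 and 3, against 16926, 11390 and 18849 CPM in CD8 T barcodes. Junb was at 3535 CPM in natural killer and 1941 CPM in CD8 T barcodes. Enzymatic digestion is known to induce such genes in many cell types, and its part in these levels was not tested. Of the 4 cell cycle, 5 glycolysis and 3 glucocorticoid-induced genes tested 0 were called higher or lower, and likewise 0 of 8 early maturation genes. Over all 1602 genes tested 2.12% were called higher and 1.25% lower. Counts of 0 in lists this short are near those shares and do not describe an activity state. The cell cycle list summed to 5293, 1220 and 2529 CPM in natural killer barcodes of libraries 1, 2 and 3, against 1451, 846 and 2375 CPM in CD8 T barcodes, and Hmgb2 was its highest member at 2052 CPM. Mki67 or Top2a was detected in 3 of 59 barcodes, 2 in library 1 and 1 in library 3. At this depth a barcode with none may still be dividing. In library 1, 1 barcode with 11885 UMIs gave 63.3% of that library's Mki67 UMIs.

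Between libraries, 435 genes were compared in natural killer barcodes and the 4 that stood out most in each library were taken. In library 1 these were Mki67, Tubb5, Stmn1 and Cxcl2, with 56.0 to 100% of their UMIs in 1 barcode each. In library 3 the MHC class II genes H2-Aa, Cd74 and H2-Ab1 had 95.8 to 97.2% of their UMIs in 1 barcode, which also held the 14 UMIs of the dendritic cell gene Cd209a. Xcl1 in library 2 was spread over 20 of 23 barcodes, with 15.8% in the highest; at 1931 CPM (1563 to 2361 CPM) its interval lay above those of library 1 (435 to 828 CPM) and library 3 (132 to 474 CPM). At 1000 UMIs per barcode Xcl1 was detected in 4 of 11, 16 of 23 and 2 of 18 natural killer barcodes of libraries 1, 2 and 3. CD4 T barcodes too had most Xcl1 in library 2 (123, 485 and 0 CPM) while CD8 T barcodes had most in library 1. AY036118, Map1lc3b and Fth1 completed library 2, and AY036118 was highest in library 2 in CD8 T, CD4 T and macrophage barcodes as well. Gm26917 was at 289, 264 and 3469 CPM in natural killer barcodes, and was highest in library 3 in CD8 T and macrophage barcodes too, but lowest in library 3 in CD4 T barcodes (565, 605 and 246 CPM). Klrb1c, a rule gene, was at 91.3, 244 and 650.4 CPM by library, and at 1000 UMIs was detected in 1 of 11, 5 of 23 and 9 of 18 barcodes. Which of these differences belongs to a library and which to an exposure cannot be told apart.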

How the data were processed

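Single cells from pooled mouse gallbladders were sequenced as 3′ libraries in 3 groups. The authors deposited 1 matrix of raw UMI counts (31053 genes, 27700 barcodes), the work of Cell Ranger 6.1.1 as the file headers state, on GRCm38 (mm10) per the submitters' processing notes; its annotation and any depth equalising are not given in the sources used here. Libraries 1, 2 and 3 are not tied to groups. The members, gene lists and gates were chosen with earlier results of these data known. Counts were summed per class and library and divided by total UMIs (CPM), with exact Poisson and Clopper-Pearson 95% intervals, in Python 3.11.15 with numpy 2.4.6, scipy 1.17.1 and pandas 2.3.3. The rule for named genes took the 8 rule genes, the 3 highest of each function list, the 12 highest and 8 lowest called over CD8 T, and 4 per library with the highest ratio (50 CPM added) to the next library. The 12 highest and 8 lowest were ranked without the rule, Cd3, Cd8 and T cell receptor genes, and without genes under 100 CPM in both classes. List members named for a known role, and Cd209a, were chosen after their values were seen. Doublets were scored with Scrublet in scanpy 1.11.5 (expected rate 0.06) and not removed. The fold calls were tested on simulated data, which cannot take the place of replicate libraries. Positions are those of GENCODE M21, which held 30934 of the identifiers. Total counts were 72943584, 121349261 and 58172348 UMIs.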

Additional observations from a re-analysis of the deposited data

How the results depend on the processing

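No paired analysis was possible because each group is 1 library. The share of natural killer barcodes, 0.227%, was 0.381% with 2 of the 8 rule genes required, 0.0999% with 4, 0.158% with the epithelial limit at 1000 CPM, 0.0653% with receptor constant UMIs barred and 0.139% at 1000 UMIs per barcode; a 500-gene minimum, a 10% mitochondrial limit, no epithelial limit, up to 1 Cd3 UMI, doublet removal and equal weights stayed within its interval. Leaving out each library gave 0.213 to 0.249%. The granule sum, 8258 CPM, was 7418 CPM with 2 rule genes, 9569 CPM with 4, 5890 CPM with no epithelial limit, 9199 CPM with receptor constant UMIs barred and 7720 CPM with 1 Cd3 UMI allowed, and 8117 to 8437 CPM without each library. The 34 genes called higher were 69 at a minimum of 20 UMIs and 6 at 200, and 25 to 36 under the other planned settings. Among alternatives chosen after seeing the data they were 23 without CD8 T barcodes above 10000 UMIs, 32 without the 3 members holding neutrophil or dendritic cell UMIs, and 33 to 38 without each library; 21 to 25 of the 34 were among those called without a library. With receptor constant UMIs barred this count could not be made, as library 1 had 0 members. The type 1 innate lymphoid side, 30.5%, was 18.6% at 3 genes, 19.2% at 1000 UMIs and 25.0 to 36.1% without each library. The causes of these moves were not tested. The Gzma differences kept their direction for Cxcr6, Rora, Irf8, Gzmb and Klra4 at 1000 UMIs, at 2 Gzma UMIs and without each library, where Gzmb ranged from 0.85 to 3.66 and Klra4 from 0.86 to 4.21 on the log2 scale. Levels of 71 named genes moved by over 1.5 times in 110 of 923 repeats, 39 of them with receptor constant UMIs barred. Without the 3 members holding other-lineage UMIs, H2-Aa was at 43.0 CPM, against 626 CPM with them, and Cxcl2 at 28.7 CPM, against 556 CPM. With 11 to 25 barcodes a library, a gene at 50 CPM rests on few UMIs.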
